A study of Mus musculus with 57 samples.

Results

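Common lymphoid progenitors (CLP) and granulocyte macrophage progenitors (GMP) from control mice were compared over all genes. The comparison uses 8 of the 57 libraries of the series, 4 of CLP and 4 of GMP, and these are all the control libraries of either population. Both groups came from male C57BL/6 mice, aged 8 weeks per the labels, that had been given a control antibody for 4 weeks before the marrow was taken, and no engineered allele is named for them. Mouse pools 1, 3, 5 and 7 each gave 1 CLP and 1 GMP library, all in the batch labelled A, so each CLP library has a GMP library from the same mice. The size of a pool, the identity of the control antibody and the surface markers and gates of the sorts are not stated in the labels. Treated pools 2, 4, 6 and 8, given an antibody against PAPP-A for the same time, served as a second set of mice with the same pair of sorts.

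Both progenitors descend from multipotent cells of the marrow, and each is the start of a different arm of the blood. CLP give rise to B, T and natural killer cells, depend on the receptors for interleukin 7 and Flt3 ligand, and switch on the enzymes that cut and rejoin antigen receptor genes. GMP give rise to neutrophils and monocytes under the transcription factor C/EBP alpha, and already make the proteases and the peroxidase that fill the primary granules of neutrophils.

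Library totals ran from 587316 to 8268213 counts in CLP and from 7172857 to 32179356 in GMP. The 2 shallowest libraries were the CLP libraries of pools 5 and 7, where a low value rests on the fewest counts. Between libraries of the same population, log2 levels correlated across genes at 0.711 to 0.949 in CLP and 0.928 to 0.988 in GMP. Both libraries of pool 1 stood apart from the rest. In them 3 features that resemble ribosomal RNA took 14.5% (CLP) and 10.0% (GMP) of all counts, against 0.0788% to 0.805% in the other 6. The CLP library of pool 1 also had the highest summed levels of neutrophil, basophil and stromal genes, given further on. Results are therefore also given without pool 1.

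The 2 labels were checked against their markers. Dntt, the enzyme that adds untemplated nucleotides at V(D)J joins (chr19:41029275-41059525, GRCm38), stood at 2589, 1412, 1671 and 1249.5 CPM (counts relative to the TMM-scaled library total) in the CLP libraries of pools 1, 3, 5 and 7, and at 0.154, 1.41, 0.161 and 0.0393 CPM in the GMP libraries. Mpo, the myeloperoxidase of primary granules (chr11:87793581-87804413), stood at 1958, 5304, 7498 and 5284 CPM in CLP and at 23456, 18145, 20213 and 24163 CPM in GMP, with the pools in the same order. Neither gene's groups overlapped, and both lay on the side their label gives. Mpo was nevertheless far from absent in CLP, whereas Dntt was near 0 in GMP.

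Of 13389 genes tested, 1046 (7.81%) passed the adjusted threshold of 0.05, 669 of them higher in CLP (5%) and 377 higher in GMP (2.82%). Against a null of a difference of up to 2-fold, 288 genes passed as higher in CLP (2.15%) and 17 as higher in GMP (0.127%). All 4 CLP libraries lay above all 4 GMP libraries in 1315 genes (9.82%), and the reverse held in 1418 (10.6%). The sides differed in the size of the called differences. The median called log2 difference was 2.64 in genes higher in CLP and 1.26 in genes higher in GMP, and 285 of the 669 against 1 of the 377 exceeded 8-fold, that 1 being a UCSC feature with no gene symbol, singled out after its value was seen.

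Without pool 1 the calls numbered 2455, 1246 higher in CLP and 1209 higher in GMP, and the medians were 1.70 and 0.83, with 344 genes past 8-fold on the CLP side. The unequal count of calls was thus not seen without pool 1, whereas the unequal size was. Without pool 3, 5 or 7 the calls numbered 322, 287 and 316, of which 270, 228 and 281 were higher in CLP and 52, 59 and 35 higher in GMP. The test of more than 2-fold gave 481 genes higher in CLP and 83 in GMP without pool 1, then 139 and 0, 80 and 0, and 144 and 0 without pools 3, 5 and 7.

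**Figure D1:**
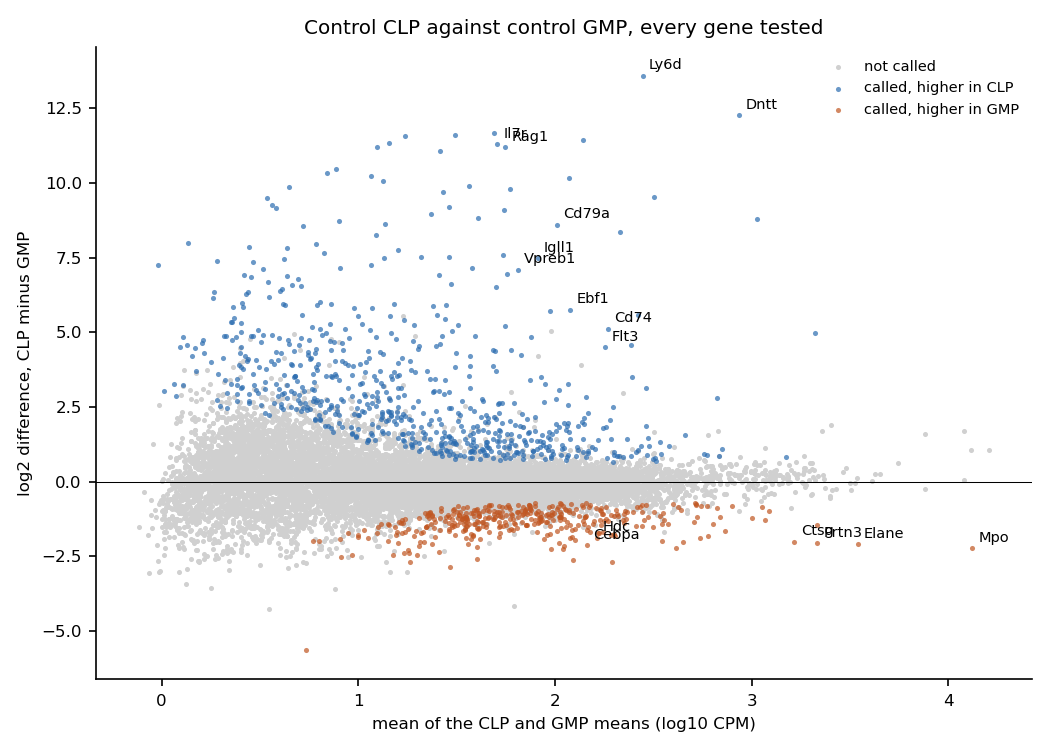
Each point is a gene tested, with its mean level over both populations (log10 CPM) on the x axis and its log2 difference, CLP minus GMP, on the y axis. Blue points (669) were called higher in CLP, many of them past 8-fold, while orange points (377) were called higher in GMP and lie, but for 1, within 8-fold.

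Recombination and early lymphoid genes were higher in CLP with few exceptions. Of 23 tested members of this list, 20 were called higher in CLP and 0 in GMP, with a median log2 difference of 3.60 beside -0.03 over all genes tested. The count was 21, 14, 13 and 13 when pools 1, 3, 5 and 7 were left out in turn.

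Rag1, the catalytic subunit of the V(D)J recombinase (chr2:101638282-101649501), measured 81.8, 88.4, 122 and 153 CPM in CLP and 0, 0.088, 0.0323 and 0.0393 CPM in GMP. With 1314 counts in the 4 CLP libraries together and 3 in the 4 GMP libraries, its level was 2334 times higher in CLP (95% counting interval 797 to 11330, edgeR adjusted p = 2.31e-05). That interval, like the one for Il7r below, comes from the summed counts alone and leaves out the spread between pools. Rag2, the other recombinase subunit, whose gene lies beside Rag1 on the opposite strand (chr2:101624718-101632529), measured 10.9, 20.4, 33.7 and 34.6 CPM in CLP and 2.77, 3.52, 2.39 and 2.83 CPM in GMP. Its groups did not overlap either, yet every GMP library held some of it, and the log2 difference was 3.00 ± 0.42 (SE) with an edgeR adjusted p of 0.00774. That call was lost without pool 5 (adjusted p = 0.0598) and without pool 7 (0.0604). The pair of recombinase genes was thus unequal in GMP, with 3 Rag1 counts in all 4 libraries.

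Il7r, the receptor chain for interleukin 7, measured 105, 81, 99.4 and 119 CPM in CLP, with 1254 counts in the 4 CLP libraries together and 2 in the 4 GMP libraries, a ratio of 3341 (95% counting interval 923 to 27620, edgeR adjusted p = 9.44e-05). Ly6d, a surface protein that marks the B-lineage-prone fraction of CLP, measured 1778, 104, 224 and 121 CPM in CLP and 0.154, 0, 0 and 0 CPM in GMP. Pool 1 was the highest CLP library for Ly6d, but each of the other 3 also lay far above GMP, which held 1 count in all. Flt3, the receptor tyrosine kinase that defines early lymphoid progenitors, was not absent from GMP. Its levels were 268, 476, 338 and 283 CPM in CLP and 12.5, 42.9, 11 and 7.47 CPM in GMP, a log2 difference of 4.52 ± 0.34 (SE, edgeR adjusted p = 0.000624). The GMP library of pool 3 was the highest of its group for Flt3 and also for Dntt. Arpp21, an RNA-binding protein gene of early lymphoid cells, differed by 7.51 ± 0.59 on the log2 scale (edgeR adjusted p = 0.0008).

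All 17 tested genes of the early B lineage were called higher in CLP, with a median log2 difference of 7.48, the same when Vpreb2, listed at 0 in every GMP library, was set at its lower bound. The count was 19, 15, 14 and 15 without pools 1, 3, 5 and 7 in turn, of 19, 16, 18 and 17 tested. The list's summed level was 1301, 1161, 2292 and 2389 CPM in CLP and 50.2, 43.1, 64.9 and 43.2 CPM in GMP.

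The surrogate light chain, which pairs with the first heavy chain to form the pre-B-cell receptor, was among the clearest. Igll1, which encodes its constant part (chr16:16860671-16863985), measured 32.6, 108, 241 and 268 CPM in CLP and 0.616, 1.32, 0.903 and 0.707 CPM in GMP, a log2 difference of 7.48 ± 0.51 (SE, edgeR adjusted p = 0.000425). Vpreb1, which encodes its variable part and lies next to Igll1 on chromosome 16 (chr16:16868403-16870843), measured 92, 69.2, 196 and 156 CPM in CLP and 0.616, 0.792, 1.42 and 0.825 CPM in GMP, a log2 difference of 7.10 ± 0.27 (SE, edgeR adjusted p = 3.64e-05). Both were lower in the CLP libraries of pools 1 and 3 than in those of pools 5 and 7, and every CLP library exceeded every GMP library. Vpreb2 had no count in GMP and was at least 256-fold higher in CLP, taking 3 counts over the GMP group as the floor. Its coding sequence is nearly the same as that of Vpreb1, so the split of reads between them is uncertain.

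Components of the B-cell receptor and its relay followed. Cd79a, the signalling chain of the receptor, measured 92.3, 144, 273 and 310.3 CPM in CLP and 0.308, 0.616, 0.516 and 0.668 CPM in GMP (log2 difference 8.61 ± 0.30, SE, edgeR adjusted p = 2.31e-05). Its partner Cd79b was less separated, with 76.8, 62, 156 and 103 CPM in CLP and 24.8, 20.2, 33.6 and 23.2 CPM in GMP (log2 difference 1.90 ± 0.20, SE, edgeR adjusted p = 0.00278). GMP libraries thus held Cd79b clearly while Cd79a was near 0 in them. The adaptor Blnk differed by 10.17 ± 0.44 (SE), the coactivator Pou2af1 by 9.90 ± 0.46 and the surrogate-light-chain partner gene Vpreb3 by 8.83 ± 0.45 on the log2 scale, with edgeR adjusted p-values of 5.02e-05, 6.99e-05 and 0.000109. The kinase Blk measured 65.9, 28.8, 52.9 and 60.9 CPM in CLP and had 1 count in GMP (edgeR adjusted p = 5.02e-05).

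Among the 15 genes with the smallest p on the CLP side were also Myl10, a myosin light chain gene, Bfsp2, known as a lens filament gene, and Sdc4, a cell-surface proteoglycan. Myl10 was even across CLP, at 76.8, 57.6, 78.6 and 86.4 CPM, against 0.462, 0.528, 0.484 and 0.59 CPM in GMP (log2 difference 7.14 ± 0.25, SE, edgeR adjusted p = 2.31e-05). Bfsp2 differed by 7.58 ± 0.34 (SE, edgeR adjusted p = 5.84e-05) and Sdc4 by 8.96 ± 0.38 (SE, edgeR adjusted p = 4.85e-05).

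Promoters are shown for 3 of these lymphoid genes, since Rag1, Igll1 and Vpreb1 all hold the E-box CAGGTG (read on both strands), the core bound by E proteins such as E2A. The sequences run 5′ to 3′ along the gene from RefSeq (GRCm38.p6), with 250 bases before and 50 after the start, and the E-box is in capitals. The RefSeq starts can differ from the gene positions given in this text. The Vpreb1 window lies wholly within the gene span given above.
Rag1, chr2:101649483-101649782, minus strand: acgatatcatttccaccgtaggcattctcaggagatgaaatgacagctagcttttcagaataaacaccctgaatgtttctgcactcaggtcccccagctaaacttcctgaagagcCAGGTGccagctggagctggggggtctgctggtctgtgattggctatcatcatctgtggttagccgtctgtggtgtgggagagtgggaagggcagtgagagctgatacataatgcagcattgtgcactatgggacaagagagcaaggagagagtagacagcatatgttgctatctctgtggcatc
Igll1, chr16:16863936-16864235, minus strand: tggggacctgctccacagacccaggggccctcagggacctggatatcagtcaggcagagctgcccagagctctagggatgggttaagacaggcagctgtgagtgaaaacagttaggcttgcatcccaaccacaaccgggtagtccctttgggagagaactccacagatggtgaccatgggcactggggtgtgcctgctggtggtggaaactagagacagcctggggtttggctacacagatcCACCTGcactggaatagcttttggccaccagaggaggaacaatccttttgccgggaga
Vpreb1, chr16:16869206-16869505, minus strand: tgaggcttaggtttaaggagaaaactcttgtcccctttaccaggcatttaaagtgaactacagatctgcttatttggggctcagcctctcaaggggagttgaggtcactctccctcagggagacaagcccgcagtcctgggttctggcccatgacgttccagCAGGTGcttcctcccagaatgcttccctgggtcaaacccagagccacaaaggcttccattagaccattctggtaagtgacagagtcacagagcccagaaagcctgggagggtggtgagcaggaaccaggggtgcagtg
Across the early B list, 9 of the 16 members with a promoter in the table held CAGGTG on either strand, beside 20.2% of all 32851 promoters of this length. In the early lymphoid and recombination list it was in 4 of 14. A match is a run of letters and no evidence of binding.

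**Figure D2:**
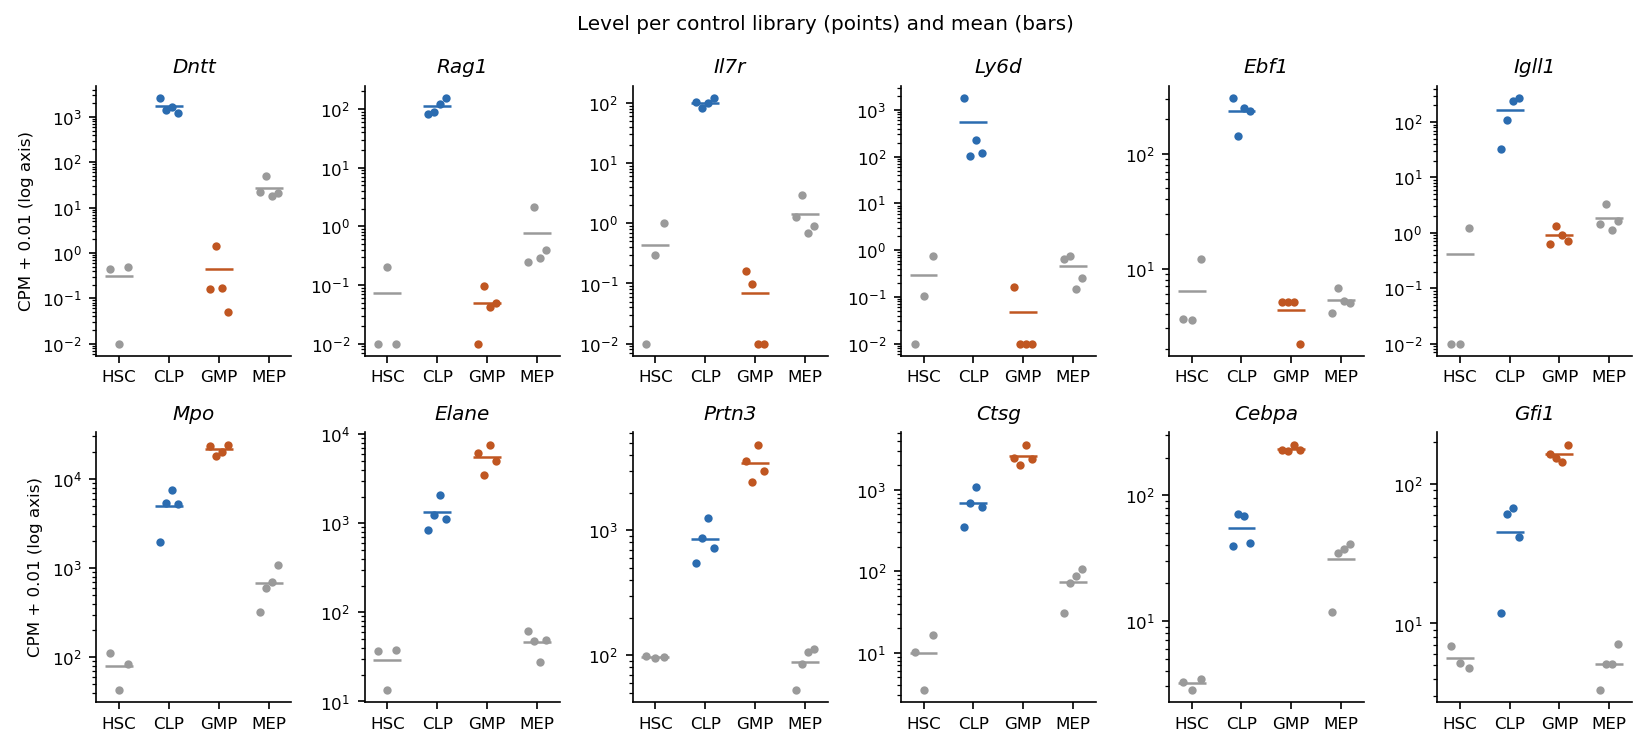
Level of 12 genes (CPM + 0.01, log axis) in each control library, by population, with the mean as a bar and 3 HSC and 4 libraries of each other population. The top row (lymphoid genes) is high in CLP (blue) and far lower in GMP (orange), while the bottom row (granule genes and their regulators) is highest in GMP but clearly present in CLP.

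Lymphoid transcription factors leaned the same way. Of 26 tested, 15 were called higher in CLP and 0 in GMP (median log2 difference 1.79), and 20, 11, 9 and 12 without pools 1, 3, 5 and 7 in turn. Ebf1, which commits cells to the B lineage, measured 306, 142, 252 and 238 CPM in CLP and 5.08, 5.11, 5.13 and 2.2 CPM in GMP, a log2 difference of 5.76 ± 0.36 (SE, edgeR adjusted p = 0.000314). Pax5, which fixes that commitment, measured 51.4, 67.2, 138 and 182 CPM in CLP and 0.462, 0.528, 0.0968 and 0.0393 CPM in GMP (log2 difference 9.09 ± 0.76, SE, edgeR adjusted p = 0.00105). Neither overlapped between groups, and Pax5 was near 0 in every GMP library while Ebf1 was low but present. Foxo1, an activator of the Rag genes and Il7r, differed by 3.87 ± 0.28 (SE, edgeR adjusted p = 0.000477) and Lef1 by 4.26 ± 0.35 (SE, edgeR adjusted p = 0.000902). Satb1, Bcl11a and Mef2c, all needed for normal lymphoid development, showed smaller log2 differences of 2.14, 1.88 and 1.94, with edgeR adjusted p-values of 0.0062, 0.00454 and 0.00491. GMP still held these 3, at 48.5 ± 6.81, 48.1 ± 2.95 and 56.1 ± 11 CPM (SD, n = 4).

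Primary granule genes were the main group on the GMP side. Of 23 tested, 18 were called higher in GMP and 0 in CLP, with a median log2 difference of -1.73, and the count was 20, 8, 4 and 7 without pools 1, 3, 5 and 7 in turn. The list took 0.865%, 1.49%, 1.95% and 1.34% of all counts in the CLP libraries of pools 1, 3, 5 and 7, and 4.33%, 4.04%, 5.00% and 4.94% in GMP. Means were 1.41% ± 0.447 (SD, n = 4) in CLP and 4.58% ± 0.470 (SD, n = 4) in GMP, and GMP was higher in 4 of 4 pools by 3.17 percentage points on average. The exact 2-sided sign-flip permutation test over pools gave p = 0.125, the smallest that 4 pools allow.

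Elane, neutrophil elastase (chr10:79886247-79888215), measured 848, 1239, 2091 and 1129 CPM in CLP and 6196, 3511, 7625 and 4992 CPM in GMP, a log2 difference of -2.09 ± 0.28 (SE, edgeR adjusted p = 0.00621). Prtn3, proteinase 3, which lies just upstream of Elane on chromosome 10 (chr10:79874476-79883174), measured 546, 864, 1251 and 724 CPM in CLP and 3579, 2446, 4848 and 3002 CPM in GMP (log2 difference -2.05 ± 0.25, SE, edgeR adjusted p = 0.00491). Prss57, another serine protease of the same stretch of chromosome 10 (chr10:79781474-79790961), measured 77.1, 73.2, 94.6 and 59.3 CPM in CLP and 241, 196, 312 and 263 CPM in GMP (log2 difference -1.72 ± 0.19, SE, edgeR adjusted p = 0.00341). The 3 neighbouring protease genes differed by like amounts, and in each the groups did not overlap.

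Ctsg, cathepsin G, on another chromosome (chr14:56099881-56102574), differed by -2.01 ± 0.26 (SE, edgeR adjusted p = 0.00615), and Mpo by -2.23 ± 0.39 (SE, edgeR adjusted p = 0.0174). Hdc, which makes histamine, had the smallest p of all genes higher in GMP, at 53.9, 67.1, 75.4 and 84 CPM in CLP and 224, 224, 263 and 313 CPM in GMP (log2 difference -1.87 ± 0.17, SE, edgeR adjusted p = 0.00141). The membrane gene Ms4a3 differed by -1.82, the haem synthesis enzyme Alas1 by -2.23, the glutathione transferase Gstm1 by -2.02 and the chaperone Calr by -1.45 (edgeR adjusted p = 0.00578, 0.0173, 0.0117 and 0.00903). Every one of these 7 genes lay higher in all 4 GMP libraries than in any CLP library.

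Several of these calls were lost when pool 3, 5 or 7 was left out, and none when pool 1 was. Without pool 5 the edgeR adjusted p was 0.0528 for Elane, 0.051 for Ctsg and 0.0527 for Ms4a3. Mpo lost its call without pool 3, 5 or 7 (0.0776, 0.0661 and 0.0713), with log2 differences of -2.37, -2.52 and -2.28, as did Alas1 (0.0611, 0.0785 and 0.0675) and Calr (0.0659, 0.059 and 0.0602), and Gstm1 without pool 5 or 7 (0.0648 and 0.0619). Without pool 1 all of them were called, with adjusted p-values of at most 4.7e-06, and Mpo had a log2 difference of -1.81. Prtn3, Prss57 and Hdc were called in each of these 4 fits.

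The tested members of the granule list that were not called were Lyz2, Plac8, Fcnb, Ctsc and Cpa3. Lysozyme 2 (Lyz2), also made by mature neutrophils and macrophages, went the other way, at 1208, 167, 128 and 115 CPM in CLP and 187, 84, 136 and 79.5 CPM in GMP (log2 difference 1.03 ± 0.43, SE, edgeR adjusted p = 0.208). Its high CLP value was that of pool 1 alone. Plac8 measured 3975, 1084, 1527 and 901 CPM in CLP and 2021, 1516, 3391 and 1757 CPM in GMP, again with pool 1 the highest CLP library (log2 difference -0.42 ± 0.37, SE, edgeR adjusted p = 0.521). Without pool 1 its log2 difference was -0.88 and it was called (edgeR adjusted p = 0.000718).

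Promoters of Mpo, Prtn3 and Elane are shown because each holds GAGGAA (read on both strands), the core recognised by the myeloid factor PU.1, marked in capitals. They are drawn from the same RefSeq table, in the same window and direction as above. The Prtn3 window lies wholly within the gene span given above, and the Mpo window mostly so.
Mpo, chr11:87793534-87793833, plus strand: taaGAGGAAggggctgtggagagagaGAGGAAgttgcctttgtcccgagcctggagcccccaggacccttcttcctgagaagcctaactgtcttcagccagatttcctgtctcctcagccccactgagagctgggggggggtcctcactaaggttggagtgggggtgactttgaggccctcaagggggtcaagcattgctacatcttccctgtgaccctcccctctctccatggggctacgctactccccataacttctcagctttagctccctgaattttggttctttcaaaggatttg
Prtn3, chr10:79879417-79879716, plus strand: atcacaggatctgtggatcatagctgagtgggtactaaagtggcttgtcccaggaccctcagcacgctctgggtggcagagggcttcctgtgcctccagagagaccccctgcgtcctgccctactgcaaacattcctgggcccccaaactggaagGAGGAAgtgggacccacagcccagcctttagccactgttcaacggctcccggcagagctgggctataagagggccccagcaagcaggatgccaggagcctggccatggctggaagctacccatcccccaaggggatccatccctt
Elane, chr10:79886062-79886361, plus strand: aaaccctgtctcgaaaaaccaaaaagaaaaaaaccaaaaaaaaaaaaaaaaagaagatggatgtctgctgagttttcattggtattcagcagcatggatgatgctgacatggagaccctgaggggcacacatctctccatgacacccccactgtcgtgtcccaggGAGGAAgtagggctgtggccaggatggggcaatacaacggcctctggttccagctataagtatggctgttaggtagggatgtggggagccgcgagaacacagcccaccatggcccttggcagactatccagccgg
Mpo holds 2 such runs. Of 20 granule-list members with a promoter in the table, 10 held GAGGAA on either strand, beside 28.3% of all promoters. It is not particular to them: 7 of 16 early B promoters held it too, and the Igll1 and Vpreb1 windows shown above hold 1 match each. The C/EBP motif searched, TTGCNNAA, was in none of these 3 windows, which were chosen for GAGGAA, but in 4 of the 20 granule-list promoters, beside 10.8% of all promoters.

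Myeloid transcription factors did not move as 1 group. Of 28 tested, 8 were called higher in CLP and 7 higher in GMP. Without pools 1, 3, 5 and 7 in turn, these counts were 9, 3, 2 and 3 for CLP and 9, 3, 3 and 3 for GMP. Cebpa, the master factor of granulocyte and monocyte progenitors (chr7:35119293-35121928), measured 39.5, 70.4, 69 and 42 CPM in CLP and 229, 228, 253 and 229 CPM in GMP, a log2 difference of -2.13 ± 0.22 (SE, edgeR adjusted p = 0.00265). The 4 GMP values were close together and lay far above every CLP value. Its later relative Cebpe, active in granule formation, differed by -1.54 ± 0.19 (SE, edgeR adjusted p = 0.00491), and Tfec by -1.59 ± 0.19 (SE, edgeR adjusted p = 0.00486). Gfi1, a repressor needed for neutrophils, measured 11.9, 61.3, 67.3 and 42 CPM in CLP and 164, 153, 145 and 191 CPM in GMP (log2 difference -2.04 ± 0.43, SE, edgeR adjusted p = 0.0333). It lost its call without pool 3, 5 or 7 (0.0857, 0.0934 and 0.131).

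Spi1, which encodes PU.1, and Myb differed by less, -0.99 ± 0.18 and -0.81 ± 0.17 in log2 units (with SE), at edgeR adjusted p-values of 0.0196 and 0.0345. Neither was called without pool 3, 5 or 7 (adjusted p of at least 0.0903 for Spi1 and 0.1 for Myb). The monocyte and dendritic factors Irf8 and Klf4 went towards CLP. Irf8 measured 649.9, 355, 343 and 186 CPM in CLP and 289, 166, 125 and 86.2 CPM in GMP. It was higher in CLP within each of the 4 pools although the groups overlapped (log2 difference 1.21 ± 0.17, SE, edgeR adjusted p = 0.00697), and the call was lost without pool 3, 5 or 7 (0.06, 0.0552 and 0.0675). It was also lost with no pool block (edgeR adjusted p = 0.108), so it rests on the pairing. Klf4 measured 449, 135, 152 and 148 CPM in CLP and 106, 39.1, 33.9 and 37.9 CPM in GMP (log2 difference 2.00 ± 0.17, SE, edgeR adjusted p = 0.00105), with pool 1 highest on both sides.

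The other genes with the smallest p on the GMP side were of mixed function. Plod3, a lysyl hydroxylase, measured 79.3, 84.4, 81.8 and 67.5 CPM in CLP and 274, 244, 229.8 and 285 CPM in GMP (log2 difference -1.72 ± 0.18, SE, edgeR adjusted p = 0.0031). Gsr, glutathione reductase, measured 229.9, 191, 210.1 and 184 CPM in CLP and 614, 430.3, 595 and 549 CPM in GMP (log2 difference -1.42 ± 0.17, SE, edgeR adjusted p = 0.00486). App, the amyloid precursor protein gene, measured 30.8, 38, 41.7 and 36.2 CPM in CLP and 178, 120.4, 111 and 151 CPM in GMP (log2 difference -1.93 ± 0.23, SE, edgeR adjusted p = 0.0049). For all 3 the 4 CLP values were close together and clear of the GMP values. Cldn15, Trem3, Ly6c2, Tmx4, Dram1, Mtus1 and Naip2 completed these 15 genes, with log2 differences of -1.62, -1.71, -1.64, -1.46, -1.67, -1.80 and -1.77 and edgeR adjusted p-values from 0.00452 to 0.00491. Ly6c2 and Naip2 have close paralogs, so their counts are less certain.

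Genes whose products are commonly used to sort these cells were read next, although the gates used here are not given in the sources. Besides Il7r and Flt3, Ly6a (Sca-1) was called higher in CLP, at 17, 15.7, 22.4 and 11.5 CPM against 0, 0.616, 0.677 and 0.55 CPM (log2 difference 5.11 ± 0.67, SE, edgeR adjusted p = 0.00621, and 0.0552 without pool 5). Kit, the stem cell factor receptor, measured 67.7, 205, 164 and 165 CPM in CLP and 267, 318, 276 and 331 CPM in GMP (log2 difference -1.08 ± 0.25, SE, edgeR adjusted p = 0.0462). Fcgr3, an Fc receptor chain, measured 23.5, 48.9, 83.4 and 69.1 CPM in CLP and 213, 158, 157 and 219.9 CPM in GMP (log2 difference -1.86 ± 0.35, SE, edgeR adjusted p = 0.0225). Kit and Fcgr3 were separated in all libraries but lost their calls without pool 3, 5 or 7, with adjusted p-values of 0.132, 0.141 and 0.173 for Kit (0.0628 with no pool block) and 0.107, 0.062 and 0.0868 for Fcgr3. Cd34 overlapped between the groups, at 126, 417, 226 and 240.3 CPM in CLP and 232, 359.7, 309 and 285 CPM in GMP (log2 difference -0.34 ± 0.22, SE, edgeR adjusted p = 0.388).

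Cytokine receptors divided between the sides, 11 of 36 tested being called higher in CLP and 5 in GMP. Without pools 1, 3, 5 and 7 in turn the counts were 14, 5, 4 and 4 for CLP and 9, 1, 0 and 0 for GMP. Csf3r, the granulocyte colony-stimulating factor receptor, measured 31.1, 76, 59.3 and 43.6 CPM in CLP and 202, 193, 128 and 225 CPM in GMP (log2 difference -1.88 ± 0.30, SE, edgeR adjusted p = 0.0128), and was not called without pool 5 or 7 (0.051 and 0.0702). Il18r1, a receptor chain for interleukin 18, measured 60.8, 20.1, 17.6 and 14.8 CPM in CLP and 0.308, 0.88, 0.355 and 0.393 CPM in GMP (log2 difference 5.54 ± 0.52, SE, edgeR adjusted p = 0.00192).

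Antigen presentation and dendritic genes were higher in CLP. Of 10 tested genes of MHC class II, 6 were called higher in CLP and 0 in GMP (median log2 difference 2.92), and the count was 5, 5, 5 and 5 without pools 1, 3, 5 and 7 in turn. Cd74, the invariant chain, measured 173, 422, 603 and 241 CPM in CLP and 7.08, 25.5, 5.94 and 6.37 CPM in GMP (log2 difference 5.13 ± 0.47, SE, edgeR adjusted p = 0.00164). H2-Aa measured 42.7, 159, 271 and 109 CPM in CLP and 2.77, 12.1, 2.81 and 3.18 CPM in GMP (log2 difference 4.86 ± 0.52, SE, edgeR adjusted p = 0.0034). In both, pool 3 was the highest GMP library, and without pool 1 neither was called (0.0795 for Cd74 and 0.092 for H2-Aa). H2-Ob, a modulator of peptide loading made by B cells, was steadier, at 159.7, 119.8, 138 and 91.4 CPM in CLP and 5.23, 8.63, 7.16 and 5.31 CPM in GMP (log2 difference 4.25 ± 0.25, SE, edgeR adjusted p = 0.000211), and was called in each fit without 1 pool.

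Dendritic cell genes were called higher in CLP in 11 of 16 tested and in 0 in GMP, and in 11, 6, 3 and 4 without pools 1, 3, 5 and 7 in turn. Siglech, a marker of plasmacytoid dendritic cells, measured 172, 21.2, 22.4 and 6.58 CPM in CLP, with pool 1 far above the others, and 0.308, 0.528, 0.355 and 0.472 CPM in GMP (log2 difference 5.92 ± 0.72, SE, edgeR adjusted p = 0.00491). Some CLP genes are shared with that cell type, and its part in the result was not tested.

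Antigen receptor and Src-family signalling was mixed, 9 of 24 tested members of that list being called higher in CLP and 1 in GMP, 14 not being called (median log2 difference 0.42). Counts without pools 1, 3, 5 and 7 in turn were 12, 6, 6 and 6 for CLP and 3, 0, 0 and 0 for GMP. Lck, the Src-family kinase of T cells, measured 67, 40.8, 60.9 and 31.3 CPM in CLP and 1.08, 2.46, 2.16 and 2 CPM in GMP (log2 difference 4.60 ± 0.38, SE, edgeR adjusted p = 0.000969). Fyn, its broader relative, differed by 2.71 ± 0.33 (SE, edgeR adjusted p = 0.00491) and Zap70 by 5.35 ± 0.68 (SE, edgeR adjusted p = 0.00541). The member higher in GMP was Dok3, an inhibitory adaptor (log2 difference -0.91 ± 0.18, SE, edgeR adjusted p = 0.0234, and 0.123, 0.112 and 0.137 without pools 3, 5 and 7).

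In the T, natural killer and innate lymphoid list, 5 of 12 tested were higher in CLP and 2 in GMP, one of them Zbtb16, which encodes PLZF, a factor also of myeloid progenitors. Without pools 1, 3, 5 and 7 in turn the counts were 5, 3, 3 and 5 for CLP and 2, 1, 0 and 1 for GMP, of 12, 6, 11 and 13 tested. Zbtb16 measured 2.53, 2.68, 0 and 4.12 CPM in CLP and 10.6, 16.4, 7.48 and 21.7 CPM in GMP (log2 difference -2.53 ± 0.45, SE, edgeR adjusted p = 0.0183, and 0.133, 0.0521 and 0.112 without pools 3, 5 and 7).

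In the Notch pathway, 6 of 15 tested genes were higher in CLP and 1 in GMP, and without pools 1, 3, 5 and 7 in turn 8, 3, 2 and 3 were higher in CLP and 1, 0, 0 and 0 in GMP. Hes1, a direct target of Notch, measured 90.9, 17, 35.3 and 22.2 CPM in CLP and 0, 0.088, 0.355 and 0.118 CPM in GMP (log2 difference 7.53 ± 0.57, SE, edgeR adjusted p = 0.000624). The receptor Notch1 differed by much less, 0.90 ± 0.20 (SE, edgeR adjusted p = 0.0379), and Dtx4 was higher in GMP (-1.18 ± 0.21, SE, edgeR adjusted p = 0.0165). Neither Notch1 nor Dtx4 was called without pool 3, 5 or 7 (adjusted p of at least 0.133 and 0.066).

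Immediate early genes, which respond within minutes to signals and to handling of cells, were called higher in CLP in 12 of 21 tested and in 0 in GMP, with 13, 4, 4 and 6 without pools 1, 3, 5 and 7 in turn. Nr4a1, a nuclear receptor induced by antigen receptor signals, measured 966, 331, 377 and 202 CPM in CLP and 24.6, 23.9, 13.1 and 9.98 CPM in GMP (log2 difference 4.57 ± 0.30, SE, edgeR adjusted p = 0.000354). Its levels were 1076 ± 489.6 CPM (SD, n = 3) in HSC and 196 ± 37.6 CPM (SD, n = 4) in MEP, so GMP was the low population. Fos was closer, at 2284, 1922, 1804 and 1579 CPM in CLP and 1279.7, 1050, 894 and 1071 CPM in GMP (log2 difference 0.82 ± 0.18, SE, edgeR adjusted p = 0.0397, and 0.223, 0.152 and 0.18 without pools 3, 5 and 7).

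Metabolic and secretory lists leaned towards GMP. In glycolysis 9 of 21 tested were higher in GMP and 1 in CLP (median log2 difference -0.86), and in ER folding and secretion 10 of 30 were higher in GMP and 0 in CLP (median -0.70). Without pools 1, 3, 5 and 7 in turn, 13, 1, 1 and 1 glycolysis genes and 23, 0, 0 and 0 ER genes were called higher in GMP. Over all genes tested, these fits called 1209, 52, 59 and 35 higher in GMP. Hk3, the hexokinase of myeloid cells, measured 92, 165, 197 and 129 CPM in CLP and 606, 518, 496 and 594 CPM in GMP (log2 difference -1.98 ± 0.26, SE, edgeR adjusted p = 0.00649). Hyou1, an ER chaperone, measured 90.9, 249, 197 and 254 CPM in CLP and 466, 534, 420.3 and 581 CPM in GMP (log2 difference -1.43 ± 0.26, SE, edgeR adjusted p = 0.0195, and 0.0844, 0.0908 and 0.0817 without pools 3, 5 and 7). Pool 1 was the lowest CLP library for both.

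Cell cycle genes were read in 2 lists, which were not tested against each other. Of 30 S phase genes tested 0 were called in either direction (median log2 difference 0.01), while 6 of 30 G2/M genes were called higher in CLP (median 0.49) and 22, 0, 0 and 0 without pools 1, 3, 5 and 7 in turn. Over all genes tested, the fits without 1 pool called 1246, 270, 228 and 281 higher in CLP. Cenpf, a kinetochore protein gene of G2 and mitosis, measured 138, 157, 123 and 190.1 CPM in CLP and 57.9, 86.3, 49.4 and 85.6 CPM in GMP (log2 difference 1.14 ± 0.17, SE, edgeR adjusted p = 0.00925, and 0.0559, 0.0617 and 0.0838 without pools 3, 5 and 7). Of 30 respiratory chain and 30 cytosolic ribosomal protein genes 0 were called, with medians of -0.12 and 0.11.

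**Figure D3:**
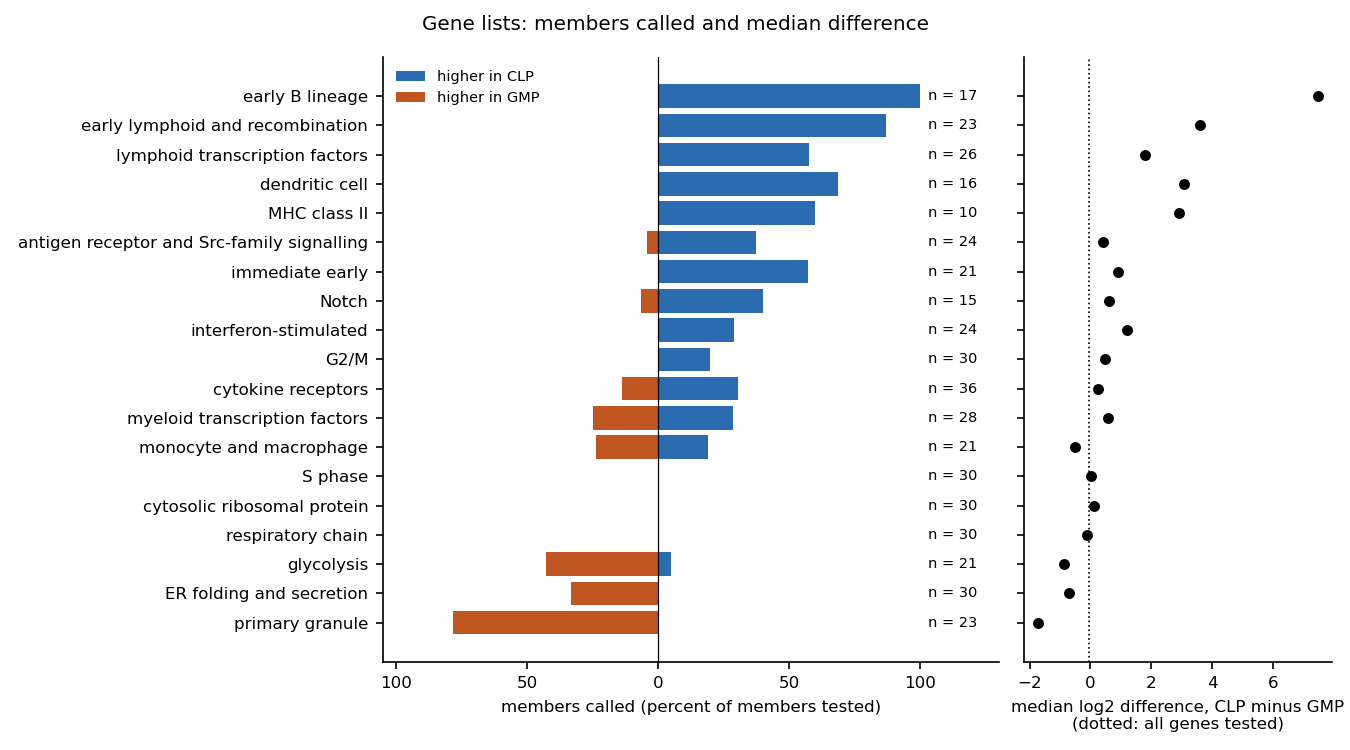
Left, members of 19 gene lists called higher in CLP (blue, to the right) or in GMP (orange, to the left), as a percent of the members tested (n). Right, the median log2 difference of each list, with the median of all genes tested as a dotted line at -0.03. The early B list (17 of 17, median 7.48) and the primary granule list (18 of 23, median -1.73) form the 2 ends.

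The antibody given to the treated mice acts on the insulin-like growth factor (IGF) axis, and in the control mice Igf1r, the IGF receptor, was higher in GMP. It measured 104, 73.1, 78.6 and 70 CPM in CLP and 138, 145, 166 and 171 CPM in GMP (log2 difference -0.93 ± 0.20, SE, edgeR adjusted p = 0.0344). Irs2, an adaptor below the receptor, measured 36.9, 23.4, 35.3 and 30.5 CPM in CLP and 15.4, 10.3, 6.84 and 14.1 CPM in GMP (log2 difference 1.45 ± 0.28, SE, edgeR adjusted p = 0.0249). These were the 2 called of 6 tested members of the axis. Without pool 1 all 6 were called, 2 higher in CLP and 4 in GMP. Neither was called without pool 3, 5 or 7 (adjusted p of at least 0.125 for Igf1r and 0.0814 for Irs2).

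Markers of other marrow cells were read in the same libraries. The mature neutrophil list summed to 13261, 1933, 813 and 1149.9 CPM in the CLP libraries of pools 1, 3, 5 and 7 and to 1221, 774, 1001 and 874 CPM in GMP. S100a9, an abundant protein of mature neutrophils, measured 4176, 452, 152 and 249 CPM in CLP and 139, 56, 76.2 and 50.3 CPM in GMP (log2 difference 2.80 ± 0.61, SE, edgeR adjusted p = 0.0354), and was not called without pool 1 (0.113) nor without pools 3, 5 or 7 (0.144, 0.0522 and 0.0919). The list was called higher in CLP in 6 of 18 tested and in GMP in 1, and in 6, 0, 3 and 1 (CLP) without pools 1, 3, 5 and 7 in turn. The CLP library of pool 1, highest in these genes, was the lowest of the CLP libraries in Mpo, Elane, Prtn3 and Ctsg. Other members of the primary granule list went the other way, Lyz2 and Plac8 being highest in that library. The summed primary granule list was 12062 CPM in CLP pool 1 and 13146, 18375 and 12400 CPM in CLP pools 3, 5 and 7.

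Mast cell and basophil genes summed to 4648, 309, 414 and 375 CPM in CLP and 524, 609, 708 and 686 CPM in GMP, and the stromal list to 967, 36.5, 27.3 and 18.1 CPM in CLP and 16.2, 29, 14.9 and 18.4 CPM in GMP. Col1a1, a collagen of bone and stroma, was at 389, 2.89, 3.21 and 0 CPM in CLP. Pool 1 alone was high in both lists. Eosinophil genes summed to 3347, 321, 930.0 and 3129 CPM in CLP and 783, 466, 1103 and 1332 CPM in GMP, high in CLP pools 1 and 7.

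Erythroid genes summed to 2090.4, 768, 457 and 1452 CPM in CLP and 226, 269.8, 259.5 and 258 CPM in GMP, and 11 of 18 tested were called higher in CLP and 0 in GMP (13, 4, 4 and 4 in CLP without pools 1, 3, 5 and 7 in turn). Car1, a carbonic anhydrase of red cell precursors, measured 19.6, 103, 28.9 and 221 CPM in CLP and 2, 9.86, 2.19 and 1.3 CPM in GMP, beside 2363 ± 493 CPM (SD, n = 4) in MEP. Its edgeR adjusted p was 0.0157, and 0.203 and 0.0855 without pools 1 and 5.

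Plasma cell genes summed to 3016, 3123, 6728 and 886 CPM in CLP and 297, 279.8, 325 and 303 CPM in GMP, and 8 of 12 tested were higher in CLP and 1 in GMP (8, 7, 7 and 8 in CLP and 2, 0, 0 and 0 in GMP without pools 1, 3, 5 and 7 in turn). Xbp1, a member of this list, leaned towards GMP without a call (log2 difference -0.91, edgeR adjusted p = 0.0599). Without pool 1 it was called higher in GMP (log2 difference -0.73, edgeR adjusted p = 0.00281). Igha, the constant region of IgA, which CLP are not known to make, measured 348, 451, 204 and 108 CPM in CLP and 0, 0.088, 0.0645 and 0.0786 CPM in GMP (log2 difference 11.46 ± 0.39, SE, edgeR adjusted p = 2.31e-05). Igkc, the kappa light chain, measured 1845, 1765, 4576 and 275 CPM in CLP and 4, 3.96, 6.58 and 1.1 CPM in GMP (log2 difference 8.79 ± 0.35, SE, edgeR adjusted p = 4.45e-05). The variable segment Igkv19-93 measured 5.07, 28.9, 427 and 9.05 CPM in CLP, highest in pool 5, which was also highest in Igkc and in Jchain (533, 573, 1344 and 105 CPM). Reads of immunoglobulin segments are shared between near-identical genes, so single segments are uncertain. The part of plasma cells, neutrophils and other cells in the CLP results was not tested, and in sorted pools more of a cell type and more RNA per cell cannot be told apart.

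**Figure D4:**
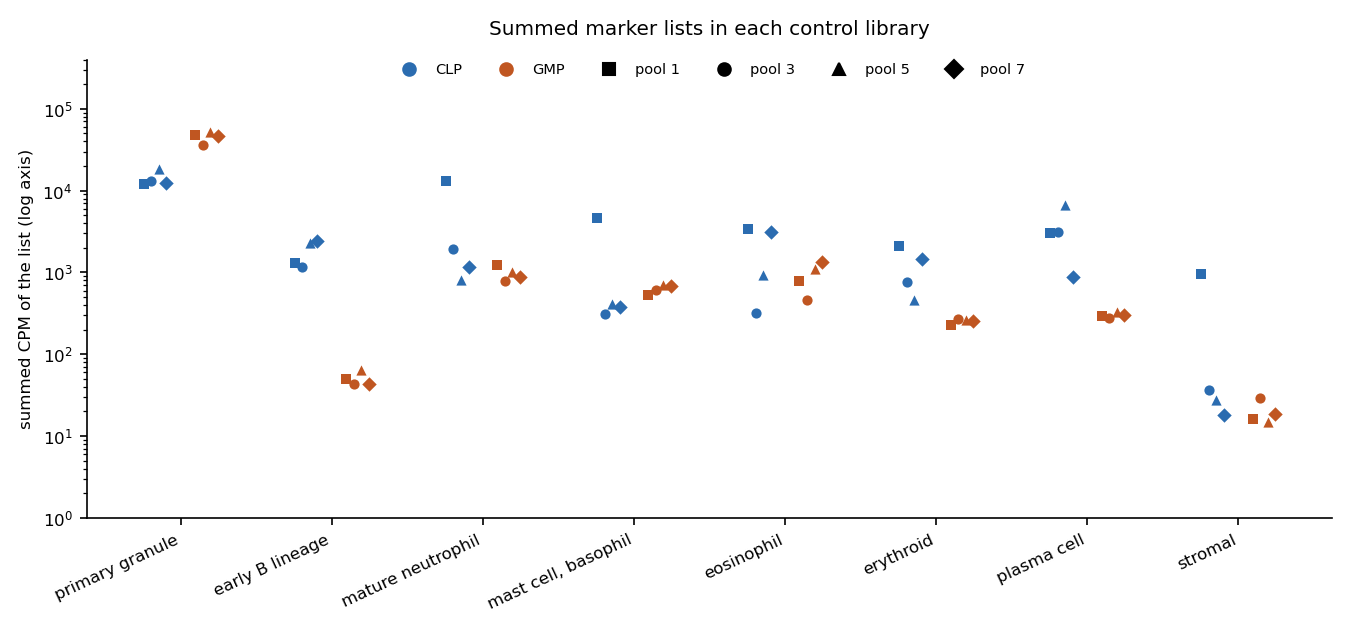
Summed CPM of 8 marker lists (log axis) in each control library of CLP (blue) and GMP (orange), with the pool given by the symbol. CLP pool 1 (square) is far above the other CLP libraries in the neutrophil, basophil and stromal lists, while the primary granule list separates all CLP from all GMP libraries.

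Values in the control stem cell (HSC, 3 libraries) and megakaryocyte-erythroid progenitor (MEP, 4 libraries) populations place the same genes. Mpo stood at 79.7 ± 35.1 CPM (SD, n = 3) in HSC and 673 ± 311 CPM (SD, n = 4) in MEP, beside 5011 ± 2285 CPM (SD, n = 4) in CLP and 21494 ± 2818 CPM (SD, n = 4) in GMP. Elane stood at 29.4 ± 13.9 CPM (SD, n = 3) in HSC and 46.6 ± 14.2 CPM (SD, n = 4) in MEP, beside 1327 ± 535 CPM (SD, n = 4) in CLP and 5581 ± 1750.2 CPM (SD, n = 4) in GMP. For both genes the order was GMP, CLP, MEP, HSC by mean, and every CLP library lay above every HSC and MEP library. Dntt stood at 0.305 ± 0.266 CPM (SD, n = 3) in HSC and 27.7 ± 15.1 CPM (SD, n = 4) in MEP, and Cebpa at 3.17 ± 0.337 CPM (SD, n = 3) and 31.3 ± 13.3 CPM (SD, n = 4). These values are set side by side with no test.

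The treated pools gave the same contrast in other mice. Of 13962 genes tested there, 835 passed (5.98%), 508 higher in CLP (3.64%) and 327 higher in GMP (2.34%). Of the 1046 genes called in control mice 1015 were tested in treated mice, all 1015 had the same sign, and 654 were called with it, 416 of 638 higher in CLP and 238 of 377 higher in GMP. Dntt differed by 12.18 (edgeR adjusted p = 0.0133), Igll1 by 7.00 (0.0137), Mpo by -2.37 (0.0248) and Cebpa by -2.00 (0.0147) on the log2 scale. The treated count was 1965 without pool 2 and 173, 45 and 1 without pools 4, 6 and 8.

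The difference between the contrasts of control and treated mice was tested as an interaction over the 16 libraries. Of 15429 genes 0 were called (0%) by edgeR's quasi-likelihood test with Benjamini-Hochberg adjustment, and 38 had an unadjusted p under 0.05. A miss of this threshold does not show that the contrasts were the same.

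**Figure D5:**
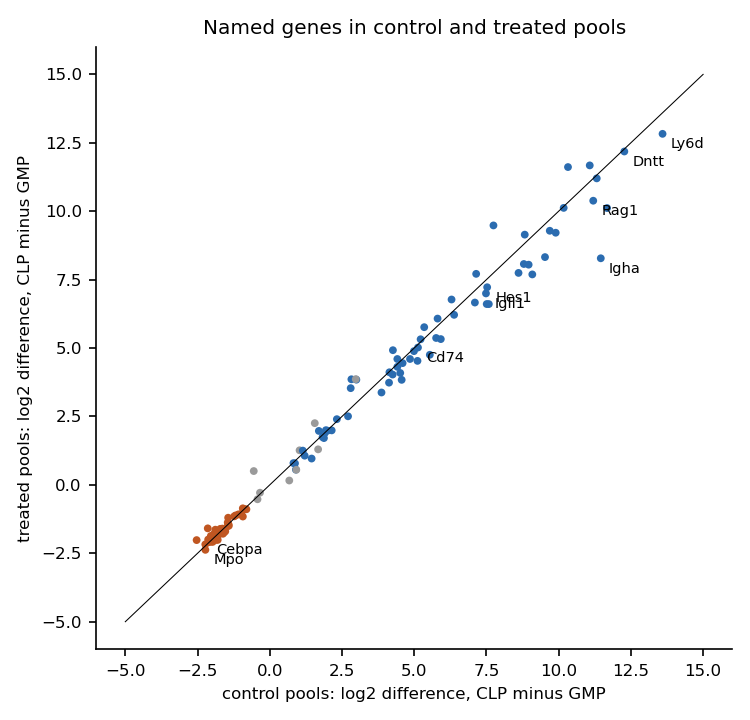
Log2 difference, CLP minus GMP, of the named genes in control pools (x axis) and in treated pools (y axis), with the line of equal values. Blue genes were called higher in CLP in control pools, orange genes higher in GMP, and grey genes were not called.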

How the data were processed

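RNA-seq libraries of sorted mouse marrow were measured. The submitters' processing notes name FastQC 0.11.5, Salmon and the build mm10, while for the Salmon version and annotation the answer is "not given in the sources used here". The authors deposited estimated counts per gene for every library in 1 long table of 7385832 lines and 56332 genes, of which 18072 stood on more than 1 line. Lines differed in 0 of the 3210924 pairs of gene and library, a total that includes pairs with 1 line. Each pair was therefore used once. The deposited values were rounded to whole numbers.

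Genes were filtered with filterByExpr, scaled by TMM and tested with edgeR 4.0.16 (R 4.3.3) by the quasi-likelihood test with robust estimation, the pool as a block and Benjamini-Hochberg adjustment at 0.05. The 2-fold test used glmTreat. SE is the log2 difference over the square root of F. Pools pair the libraries because the labels give CLP and GMP of a number the same mouse pool, and their deviations from the group means correlated at 0.126, 0.421, 0.0372 and 0.554 in pools 1, 3, 5 and 7. Libraries of different pools reached 0.406 (CLP 1 with GMP 5), so these values do not themselves show the pairing. No source says that pools were independent beyond their number. With the pool as a block, p-values rest on how the CLP minus GMP difference varied between these pools, with dispersion moderated across genes.

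The named genes were the 15 with the smallest p in each direction among called genes with an Ensembl ID, a symbol that is not a predicted gene and a mean of at least 10 CPM in the higher population, plus Dntt, Mpo and members of 34 gene lists. 1 of these genes is not reported here. Lists and rule were chosen with earlier results of these data known. On simulated counts for the control comparison (13014 genes) the fit recovered 17.5% of genes changed 2-fold and 68% of those changed 4-fold, and 11.7% of its calls were false. Positions come from GENCODE M21 (GRCm38), where 115 of 115 genes looked up matched. Alternatives included DESeq2 1.42.0 and limma 3.58.1 (voom). Whether the counting used strand is not given, so overlapping and antisense genes cannot be told apart.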

Additional observations from a re-analysis of the deposited data

Results flagged for a closer look

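In groups of 4 libraries, 44 of 304 groups of values checked had 1 library whose gap to its nearest neighbour took more of the group's range than Dixon's 95% critical value. Chance alone gives this in about 5% of groups only where values follow a normal distribution, and genes of 1 library are not independent. CPM near 0 need not follow one. Where the other libraries stood at 0, as for Ly6d in GMP, 1 count was enough for a flag. The 5% is therefore no measure of chance for these values. The CLP library of pool 1 gave 23 of them and the GMP library of pool 3 gave 8.

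In GMP pool 3, Dntt stood at 1.41 CPM, against 0.0393 to 0.161 in the other 3 libraries. The level of Flt3 in GMP pool 3 was 42.9 CPM, beside 7.47 to 12.5 elsewhere in its group. Foxo1 measured 7.31 CPM in GMP pool 3 and 5.54 to 5.78 in the rest of that group. In GMP pool 3, Bach2 stood at 3.87 CPM, against 1.13 to 1.23 in the other 3 libraries. The level of Il18r1 in GMP pool 3 was 0.88 CPM, beside 0.308 to 0.393 elsewhere in its group. Cd74 measured 25.5 CPM in GMP pool 3 and 5.94 to 7.08 in the rest of that group. In GMP pool 3, H2-Aa stood at 12.1 CPM, against 2.77 to 3.18 in the other 3 libraries. The level of Car1 in GMP pool 3 was 9.86 CPM, beside 1.3 to 2.19 elsewhere in its group.

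Ly6d measured 1778 CPM in CLP pool 1 and 104 to 224 in the rest of that group. In CLP pool 1, Bcl11a stood at 259.6 CPM, against 150.4 to 159 in the other 3 libraries. The level of Klf4 in CLP pool 1 was 449 CPM, beside 135 to 152 elsewhere in its group. Lyz2 measured 1208 CPM in CLP pool 1 and 115 to 167 in the rest of that group. In CLP pool 1, Il18r1 stood at 60.8 CPM, against 14.8 to 20.1 in the other 3 libraries. The level of F13a1 in CLP pool 1 was 220.1 CPM, beside 99.6 to 117 elsewhere in its group. Siglech measured 172 CPM in CLP pool 1 and 6.58 to 22.4 in the rest of that group. In CLP pool 1, Mycl stood at 39.8 CPM, against 14.8 to 16 in the other 3 libraries. The level of S100a8 in CLP pool 1 was 3484 CPM, beside 138 to 332 elsewhere in its group. S100a9 measured 4176 CPM in CLP pool 1 and 152 to 452 in the rest of that group. In CLP pool 1, Ltf stood at 823 CPM, against 40.1 to 139 in the other 3 libraries. The level of Camp in CLP pool 1 was 1457 CPM, beside 36.9 to 151 elsewhere in its group. Mcpt8 measured 1983 CPM in CLP pool 1 and 58.4 to 101 in the rest of that group. In CLP pool 1, Prss34 stood at 2033 CPM, against 80.0 to 119 in the other 3 libraries. The level of Hbb-bs in CLP pool 1 was 369 CPM, beside 11.7 to 66.7 elsewhere in its group. Col1a1 measured 389 CPM in CLP pool 1 and 0 to 3.21 in the rest of that group.

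In GMP pool 1, Ly6d stood at 0.154 CPM, against 0 in the other 3 libraries. The level of Klf4 in GMP pool 1 was 106 CPM, beside 33.9 to 39.1 elsewhere in its group.

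Ebf1 measured 2.2 CPM in GMP pool 7 and 5.08 to 5.13 in the rest of that group. In GMP pool 7, Blk stood at 0.0393 CPM, against 0 in the other 3 libraries.

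The level of Jchain in GMP pool 5 was 1.29 CPM, beside 0.432 to 0.528 elsewhere in its group. Igkv19-93 measured 0.484 CPM in GMP pool 5 and 0 in the rest of that group. In GMP pool 5, Cebpa stood at 253 CPM, against 228 to 229 in the other 3 libraries. The level of Notch1 in GMP pool 5 was 45.2 CPM, beside 81.6 to 88.8 elsewhere in its group.

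Igkv19-93 measured 427 CPM in CLP pool 5 and 5.07 to 28.9 in the rest of that group. In CLP pool 5, Cldn15 stood at 40.1 CPM, against 25.5 to 26.8 in the other 3 libraries.

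The summed lymphoid transcription factors list was 5893 CPM in CLP pool 1, against 2823 to 2985 in its other libraries. The summed secondary granule and mature neutrophil list was 13261 CPM in CLP pool 1, against 813 to 1933 in its other libraries. The summed dendritic cell list was 1109 CPM in CLP pool 1, against 332 to 449 in its other libraries. The summed mast cell and basophil list was 4648 CPM in CLP pool 1, against 309 to 414 in its other libraries. The summed stromal list was 967 CPM in CLP pool 1, against 18.1 to 36.5 in its other libraries. The summed immediate early list was 15145 CPM in CLP pool 1, against 8192 to 9109.7 in its other libraries. The summed antigen receptor and Src-family signalling list was 1527 CPM in CLP pool 3, against 1708 to 1729 in its other libraries. The summed Notch list was 391 CPM in GMP pool 5, against 508 to 527 in its other libraries. Ribosomal features took 14.5% of counts in CLP pool 1, against 0.177 to 0.805% in its other libraries. Ribosomal features took 10.0% of counts in GMP pool 1, against 0.0788 to 0.191% in its other libraries.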

How the results depend on the processing

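Counts of calls moved with the setting. Many named genes were picked by their small p in these same data, so their calls are no fair check of stability. Of 104 named genes called, 62 were called in every fit that left out 1 pool, 42 lost the call in at least 1, and 0 changed sign. The calls numbered 1924 with DESeq2 (1140 higher in CLP, 784 in GMP), 2509 with no filter on low counts (1291 and 1218), 3525 with limma voom (1833 and 1692), 2892 when 15 control libraries shared the dispersion (1645 and 1247), and 536 after thinning to the shallowest library (306 and 230). The cause was not tested. Leaving out 1 pool gave 287 to 2455 calls, 228 to 1246 higher in CLP and 35 to 1209 in GMP, and past 2-fold 80 to 564, 80 to 481 and 0 to 83. In the treated pools leaving out 1 gave 1 to 1965, 1 to 1080 and 0 to 885. The share of calls higher in CLP was 64.0%, and 50.7% without pool 1, 83.9%, 79.4% and 88.9% without pools 3, 5 and 7, 52% with limma voom and 51.5% with no filter.

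The paired fit has the pool as replicate block. With no replicate block the control comparison gave 1476 calls (925 and 551), 407 past 2-fold (375 in CLP and 32 in GMP), and the treated pools 1545 (871 and 674). The interaction gave 0 calls with no replicate block and in each fit that left out 1 pool. It was not run under the other alternatives. Chosen after seeing the data, leaving out pools 5 and 7 gave 486 calls (370 and 116), 199 past 2-fold and 187 of these in CLP. Signs turned for uncalled genes only: Plac8 to 0.17 without pools 5 and 7, Fcnb to 0.12 with limma voom, and Mcpt8 to -0.0153 without pool 1, its highest value without 1 pool being 1.37.

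Depth limits low genes in CLP, where the shallowest library held 587316 counts.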

Other observations

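Interferon-stimulated genes were called higher in CLP in 7 of 24 tested and in GMP in 0 (median log2 difference 1.21), and in 10, 0, 0 and 1 without pools 1, 3, 5 and 7 in turn. Monocyte and macrophage genes went both ways, 4 of 21 tested being higher in CLP and 5 in GMP. Without pools 1, 3, 5 and 7 in turn the counts were 4, 3, 3 and 3 for CLP and 11, 1, 1 and 3 for GMP. F13a1, a coagulation factor subunit made by monocyte precursors, measured 220.1, 108, 117 and 99.6 CPM in CLP and 482, 269, 172 and 159 CPM in GMP (log2 difference -0.93 ± 0.20, SE, edgeR adjusted p = 0.0319, and up to 0.223 without 1 pool and 0.143 with no pool block). Mycl, a relative of Myc known from dendritic cells, measured 39.8, 15.6, 16 and 14.8 CPM in CLP and 1.23, 1.41, 1.13 and 0.707 CPM in GMP (log2 difference 4.14 ± 0.41, SE, edgeR adjusted p = 0.00242).

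The remaining lists follow, some with few calls. Over all genes tested with all 4 pools, 5% were called higher in CLP and 2.82% in GMP. Shares near these say little about a list. The share called higher in CLP was above 5% in all but the eosinophil, mast cell and basophil, and stromal lists. On the GMP side it was above 2.82% in all but the stem cell, megakaryocyte and platelet, endothelial and stromal lists. Those GMP shares rest on 1 to 3 genes in each list. Counts in brackets are those without pools 1, 3, 5 and 7 in turn. Of 23 tested members of the homing and adhesion list, 7 were called higher in CLP (8, 4, 1 and 3) and 1 in GMP (3, 0, 0 and 0). The stem cell list had 4 higher in CLP (6, 2, 0 and 2) and 0 in GMP (1, 0, 0 and 0) among 15 tested. Of 12 tested members of the megakaryocyte and platelet list, 2 were called higher in CLP (4, 1, 0 and 0) and 0 in GMP (0, 0, 0 and 0). The phagocyte oxidase and lysosome list had 2 higher in CLP (2, 1, 1 and 1) and 3 in GMP (13, 0, 0 and 0) among 25 tested. Of 30 tested members of the MYC network and ribosome biogenesis list, 3 were called higher in CLP (3, 1, 1 and 1) and 1 in GMP (2, 0, 0 and 0). The endothelial list had 1 higher in CLP (1, 1, 1 and 1) and 0 in GMP (2, 0, 0 and 0) among 5 tested. Of 8 tested members of the eosinophil list, 0 were called higher in CLP (0, 0, 0 and 0) and 1 in GMP (1, 0, 1 and 0). The mast cell and basophil list had 0 higher in CLP (1, 0, 0 and 0) and 1 in GMP (4, 1, 1 and 1) among 13 tested. Of 9 tested members of the sort genes list, 3 were called higher in CLP (3, 3, 2 and 3) and 3 in GMP (3, 1, 0 and 0). The stromal list had 0 calls among its 1 tested member.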
